A study of Mus musculus with 36 samples.

Results

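The 42 genes described here encode the receptors and ligands of the 4 classical families of axon guidance cues. They were taken by name with a rule that uses no measured value, but were chosen with earlier results of these data known. They are 42 of the 51734 gene symbols in the count table. Bulk mRNA had been sequenced from E14 mouse embryonic stem cells (ESC), and from the neural precursors (NPC) that retinoic acid made of them, to ask which transcripts depend on H3K4 methyltransferases. The 18 libraries formed 6 groups of 3 replicates: WT cells, MLL3/4 dCD cells (here dCD), in which MLL3 and MLL4 are catalytically dead, and MLL2 dTAG cells (here MLL2dTAG), in which MLL2 is fused to a degron that dTAG-13 targets, each as ESC and as NPC. Per the labels, all 6 groups received the degrader dTAG-13, also WT and ESC, and the effect of the compound itself is not compared here. The protocol gives 2 µM from day 1 of NPC differentiation with harvest on day 4, and no separate duration for ESC. Each genotype is 1 line of its own, so an edit and a difference between lines cannot be told apart, and the labels do not say that replicates were separate cultures, so p-values measure only the spread between these samples.

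Guidance cues steer growing axons and migrating cells by acting on receptors at the cell surface. Eph receptors are tyrosine kinases that bind ephrins on neighbouring cells: EphA receptors mostly bind the lipid-anchored ephrin-A ligands, EphB receptors mostly bind the transmembrane ephrin-B ligands, and signals pass in both directions at the contact. Slits are secreted repellents read by Robo receptors, and netrin-1 is a secreted cue that attracts through DCC and repels through UNC5 receptors. Class 3 semaphorins are secreted, bind neuropilins, and signal through A-type plexins that partner them. In the early nervous system these families set tissue boundaries, midline crossing and axon paths, and several also act in vessels and in early epithelia. MLL2 is known for H3K4 methylation at promoters, and MLL3 and MLL4 for H3K4 methylation at enhancers.

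Promoter windows are shown for 4 members on which the comparisons turn: Epha8 was lower in both lines at both stages, Unc5a was lower in both lines at both stages and most in NPC, Ephb1 had the largest rise in dCD NPC, and Epha5 was raised in dCD NPC. The sequences are the 250 bases before the RefSeq start, read 5′ to 3′ on the gene's strand in build GRCm38.p6, and capitals mark every CG dinucleotide. No stretch of 20 bases in them occurs in a GENCODE M21 transcript of the gene. They lie at chr4:136956817-136957066, minus strand (Epha8), chr13:54949161-54949410, plus strand (Unc5a), chr9:102354694-102354943, minus strand (Ephb1), and chr5:84417383-84417632, minus strand (Epha5).
Epha8: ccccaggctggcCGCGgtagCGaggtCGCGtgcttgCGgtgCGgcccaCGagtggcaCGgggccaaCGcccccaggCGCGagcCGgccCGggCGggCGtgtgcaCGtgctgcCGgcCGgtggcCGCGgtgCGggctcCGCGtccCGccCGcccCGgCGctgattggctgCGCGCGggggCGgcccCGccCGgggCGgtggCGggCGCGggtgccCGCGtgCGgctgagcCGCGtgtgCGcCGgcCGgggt
Unc5a: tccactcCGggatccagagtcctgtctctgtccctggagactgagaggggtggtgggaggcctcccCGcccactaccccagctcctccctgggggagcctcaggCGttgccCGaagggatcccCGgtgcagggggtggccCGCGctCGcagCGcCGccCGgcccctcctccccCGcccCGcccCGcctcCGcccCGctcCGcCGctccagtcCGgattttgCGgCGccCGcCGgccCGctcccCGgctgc
Ephb1: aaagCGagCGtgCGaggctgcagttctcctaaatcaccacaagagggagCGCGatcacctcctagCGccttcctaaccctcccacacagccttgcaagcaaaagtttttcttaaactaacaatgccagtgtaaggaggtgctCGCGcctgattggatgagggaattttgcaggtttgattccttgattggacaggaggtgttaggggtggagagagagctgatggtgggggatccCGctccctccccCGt
Epha5: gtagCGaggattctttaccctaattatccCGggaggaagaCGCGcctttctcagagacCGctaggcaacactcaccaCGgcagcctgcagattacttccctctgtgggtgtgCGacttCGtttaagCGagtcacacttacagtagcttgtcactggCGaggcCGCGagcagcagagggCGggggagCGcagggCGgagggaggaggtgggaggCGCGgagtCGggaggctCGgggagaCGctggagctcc

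RefSeq windows were found for 34 of the 42 members, with 39 starts, and Efnb3, Slit1, Ntn1, Dcc, Unc5d, Sema3f, Plxna1 and Plxna4 had no entry in that table. The median member window held 18 CG, against 14 in the 16482 windows of genes tested here and 6 over all 32851 windows of the table. Counts of CG ran from 2 in the window of Sema3a to 46 in that of Epha8, and 99.7% of all windows held fewer CG than Epha8. Windows of Nrp2 and Unc5a held 32 and 25 CG, whereas those of Ephb1 and Robo3 held 10 and 12. The GC-box letters GGGCGG, searched on both strands and each holding a CG, occurred in 28 of the 39 member windows (71.8%), against 53.2% for genes tested and 32.7% of all windows. The retinoid-receptor half-site letters AGGTCA, searched likewise, occurred in 2 of 39 (5.13%), in Epha2 and Nrp1, against 11.5% for genes tested and 14% of all windows. These matches describe the letters in the windows only.

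Library totals ranged from 19430860 to 46041277 counts, which makes 3 counts equal to 0.0663 to 0.160 CPM (the usual depth-scaled count, here with TMM factors), and all 42 members passed the filter on low counts. Between 60.8% and 66.5% of the counts from 1 to 10 in a library were even, against 48.9% to 50.4% of counts over 1000, so calls were also made with all counts halved. Replicate 2 of ESC WT stood apart from the other replicates of its group, with a chi-square of 10.5 and 8.38 per degree of freedom against them. The remaining replicate pairs gave 2.19 to 4.43. Called values of Ephb1 that use ESC WT, and the Epha8 interaction in MLL2dTAG, are also given without ESC WT replicate 2. Other calls that ended without it are named among those lost in some alternative. RNA levels do not test the edits: Kmt2b, which encodes MLL2, had 201 to 214 CPM in MLL2dTAG ESC and 198 to 235 CPM in WT ESC. Kmt2c, which encodes MLL3, was at 275 to 286 CPM in MLL2dTAG ESC against 177 to 219.5 CPM in WT ESC, and at 299.6 to 335 CPM in MLL2dTAG NPC against 171 to 178 CPM in WT NPC. The pluripotent marker list summed to 2584 to 2696 CPM in ESC WT and 120.2 to 122 CPM in NPC WT, with Dppa3 at 0 counts in NPC. Among neural progenitor markers of NPC WT, Cdh2 (171 CPM), Msi1 (102 CPM), Nes (91.2 CPM) and Pax6 (38.9 CPM) were high. Sox1 (3.10 CPM), Fabp7 (1.80 CPM) and Hes5 (0.452 CPM) were low. Against ESC WT, 9 of the 12 markers were higher and 2 lower, and Sox2 fell from 311 to 14.4 CPM. The list summed to 494 to 509.5 CPM against 536.5 to 549.6 CPM in ESC WT. The endoderm list summed to 235 to 239.8 CPM in NPC WT, led by Gata6 at 127 CPM, and the mesoderm and mesenchyme list to 763 to 779.5 CPM against 467 to 583 CPM in ESC WT (9 of 12 higher, 3 lower), with Tcf21 at 0 counts in ESC WT and 22.9 CPM in NPC WT. The label of a neural precursor is thus met by part of its markers, and the part of the other lists in the differentiation result was not tested.

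Most guidance genes rose when wild-type ESC were differentiated. Of the 42 members, 34 were higher and 7 lower in NPC WT than in ESC WT, and the change reached 2-fold for 32 that rose and 4 that fell. Epha10, an EphA receptor without kinase activity, was not called (0.03, edgeR adjusted p = 0.882). A gene was called at a Benjamini-Hochberg adjusted p under 0.05 in edgeR's quasi-likelihood test, and 79.5% of all 20511 genes tested were called here: 39.1% higher and 40.4% lower, and 22.5% and 21.2% by 2-fold or more. The median log2 change of the members was 2.29, against -0.04 for all genes tested. In bulk RNA, fewer cells of a type and less RNA per cell cannot be told apart.

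**Figure D1:**
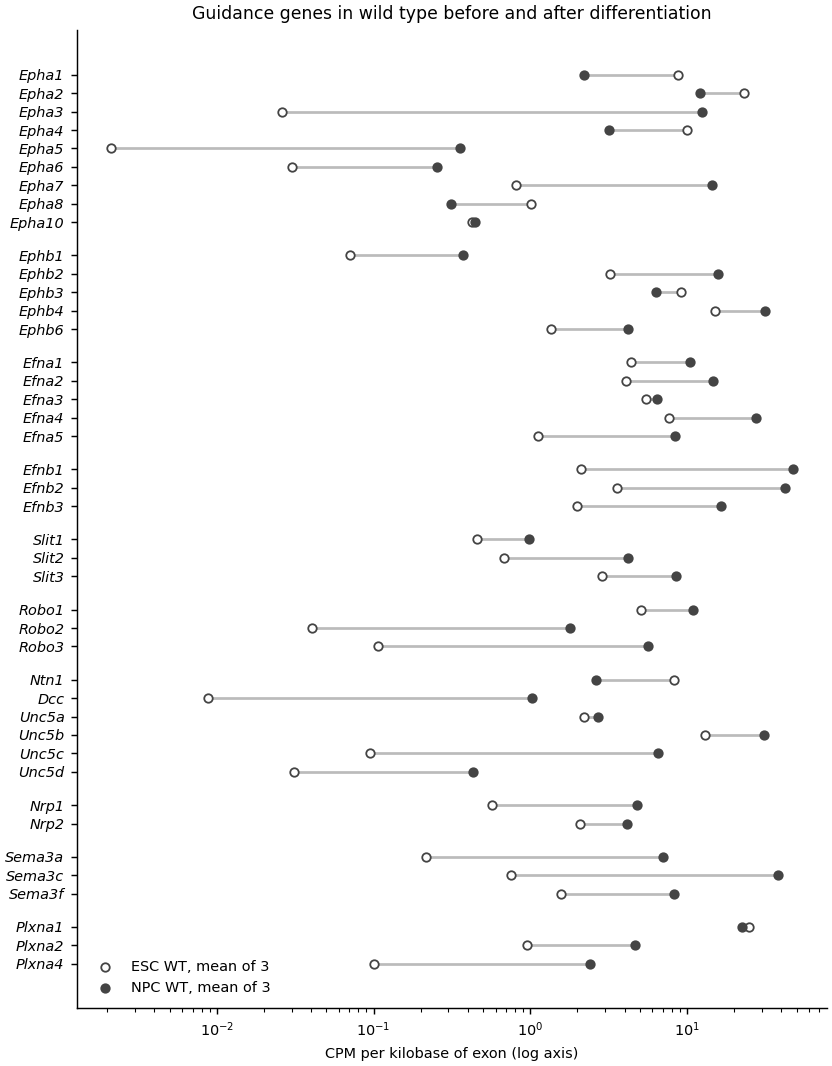
Mean level of each of the 42 genes in ESC WT (open circles) and NPC WT (filled circles), 3 libraries each, as CPM per kilobase of exon on a log axis, grouped by role from EphA receptors at the top to A plexins at the bottom. Most filled circles lie to the right of the open ones, and Epha1, Epha2, Epha4, Epha8, Ephb3 and Ntn1 lie clearly the other way.

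On a per-kilobase scale, which allows genes to be compared, the highest member levels in ESC WT were those of Plxna1 (24.8 CPM per kb), Epha2 (23.1) and Ephb4 (15.1). In NPC WT they were Efnb1 (47.1 CPM per kb), Efnb2 (42.02) and Sema3c (38.1). The EphA receptors split: Epha3, Epha5, Epha6 and Epha7 rose and Epha1, Epha2, Epha4 and Epha8 fell. Epha3, whose product binds ephrin-A ligands and sorts cells at boundaries, had 0.213, 0.199 and 0.272 CPM in the ESC WT libraries and 109, 109.9 and 105 CPM in NPC WT (log2 change 8.85 ± 0.117 (SE), edgeR adjusted p = 3.91e-37). For Epha5, a receptor of retinal and forebrain maps, only 2 counts were seen in ESC WT and 628 in NPC WT, a ratio of 234 with a 95% counting interval of 64.6 to 1940. Epha1, an epithelial EphA receptor, had 34.8, 33.9 and 33.99 CPM in ESC WT and 9.02, 9.13 and 7.85 CPM in NPC WT (log2 change -1.98 ± 0.0932 (SE), edgeR adjusted p = 2.19e-20). Epha2 (log2 change -0.92) and Epha4 (-1.66), the EphA receptor that also binds ephrin-B ligands, fell with it, and Epha8 fell by 1.71 on the log2 scale. Of the EphB receptors, Ephb1 (2.35), Ephb2 (2.28), Ephb4 (1.06) and Ephb6 (1.67) rose and Ephb3 fell by 0.53.

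All 8 ephrins rose. The ephrin-B ligands rose most, with log2 changes of 4.49 for Efnb1, 3.55 for Efnb2 and 3.07 for Efnb3, and the ephrin-A ligands rose by 0.24 (Efna3) to 2.88 (Efna5). Efnb1 had 7.13, 7.198 and 7.41 CPM in the ESC WT libraries and 153, 171 and 163 CPM in NPC WT, with no overlap (log2 change 4.49 ± 0.0662 (SE), edgeR adjusted p = 9.67e-36). All 3 Slits rose, from 1.12 for Slit1 to 2.62 for Slit2. Among their receptors Robo1 rose by 1.10, whereas Robo2 (5.51) and Robo3 (5.77), the divergent Robo of commissural axons, had under 1 CPM in every ESC WT library. Robo3 had 0.958, 0.7298 and 0.5098 CPM in ESC WT against 37.6, 40.8 and 36.95 CPM in NPC WT.

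The netrin ligand and its receptors went opposite ways. Ntn1 fell from 51.8, 53.4 and 49.6 CPM in ESC WT to 16.2, 16.7 and 16.3 CPM in NPC WT (log2 change -1.65 ± 0.0568 (SE), edgeR adjusted p = 1.59e-24). Dcc, the attractive netrin receptor, had 0.213, 0.0663 and 0.06798 CPM in ESC WT and 11.7, 13.95 and 14.7 CPM in NPC WT (log2 change 6.99 ± 0.238 (SE), edgeR adjusted p = 1.14e-24). The repulsive receptors Unc5c (6.10), Unc5d (3.81), Unc5b (1.23) and Unc5a (0.30) rose by these log2 changes. Both neuropilins, all 3 semaphorins, Plxna2 (2.29) and Plxna4 (4.54) also rose. Sema3c, which attracts or repels depending on the cell, had 4.74, 5.87 and 5.64 CPM in ESC WT and 275, 272 and 268 CPM in NPC WT (log2 change 5.63 ± 0.0533 (SE), edgeR adjusted p = 2.69e-41). Plxna1 differed by only -0.15. With offsets for GC content and length, Unc5a turned to -0.075 and was no longer called, and Robo1 (0.49), Slit2 (1.91), Plxna2 (1.68), Robo2 (4.86) and Unc5c (5.39) moved by over 1.5-fold while they stayed called. Efna3, Unc5a and Plxna1 each lost their call under some other alternative, and without ESC WT replicate 2 Ephb1 stood at 2.96.

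In ESC, 30 of 42 members were called in dCD against WT, 21 higher and 9 lower, beside 48.3% of all genes tested (25.7% higher, 22.6% lower). Changes of 2-fold or more were 8 higher and 3 lower, beside 5.66% and 3.86% of all genes, and the median log2 change was 0.22 against 0.02 for all genes. Neuropilins and semaphorins were higher (both neuropilins and all 3 semaphorins called), and 4 of 6 netrin pathway genes were higher and 1 lower. The EphB receptors Ephb2, Ephb3 and Ephb4 were lower, and Ephb1 and Ephb6 higher. In MLL2dTAG against WT, 32 were called, 19 higher and 13 lower, beside 56.9% of all genes (28.7% higher, 28.2% lower). By 2-fold or more, 8 were higher and 5 lower, beside 6.44% and 10.4%. Their median was 0.18 against -0.0011 for all genes, with netrin-1, both neuropilins, Sema3a and Plxna4 higher. Of 9 EphA receptors 5 were lower and 3 higher, the latter being Epha2 (0.62), Epha3 and Epha4. The 2 comparisons share the ESC WT libraries, so their values are given side by side.

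**Figure D2:**
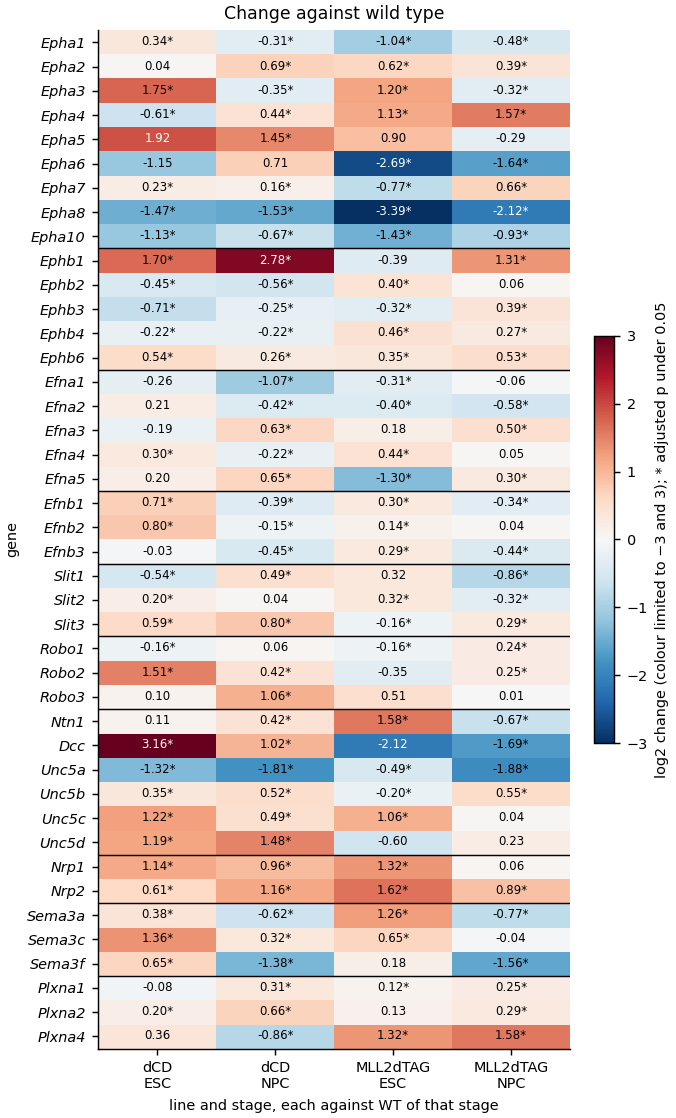
The log2 change against WT of the same stage for each of the 42 genes (vertical axis, grouped by role) in dCD and MLL2dTAG, as ESC and as NPC (horizontal axis), with the value printed and an asterisk where the adjusted p was under 0.05. Epha8, Epha10 and Unc5a are blue and called in all 4 columns, and Nrp2 and, more faintly, Ephb6 are red and called in all 4.

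Among the receptors for ephrins, Epha8, a receptor of midbrain axon projections, was the member with the deepest loss. It had 3.99, 6.004 and 4.39 CPM in ESC WT, 2.18, 1.82 and 1.27 CPM in dCD and 0.147, 0.714 and 0.47 CPM in MLL2dTAG. No library of either line reached the lowest WT library, with a log2 change -1.47 ± 0.261 (SE), edgeR adjusted p = 1.36e-05 in dCD and a log2 change -3.39 ± 0.305 (SE), edgeR adjusted p = 7.58e-12 in MLL2dTAG. Epha10 had 2.18, 3.65 and 3.297 CPM in WT, 1.75, 1.45 and 1.08 CPM in dCD and 1.39, 0.962 and 1.12 CPM in MLL2dTAG, again without overlap (log2 changes -1.13 and -1.43). Epha4 separated the lines, with 77.9, 87.5 and 77.5 CPM in WT, 50.8, 51.2 and 56.8 CPM in dCD and 172, 180.1 and 178 CPM in MLL2dTAG. It was lower in dCD (-0.61) and 2.18-fold higher in MLL2dTAG (log2 change 1.13 ± 0.0469 (SE), edgeR adjusted p = 7.39e-21). Epha1 was lower in MLL2dTAG, with 16.6, 15.8 and 17.5 CPM (log2 change -1.04 ± 0.0868 (SE), edgeR adjusted p = 1.2e-12), and slightly higher in dCD (0.34). Ephb1, a receptor that guides uncrossed retinal axons, had 0.426, 0.796 and 0.272 CPM in WT, 1.71, 1.49 and 1.79 CPM in dCD and 0.2198, 0.373 and 0.522 CPM in MLL2dTAG. The dCD libraries all lay above WT (log2 change 1.70 ± 0.289 (SE), edgeR adjusted p = 6.67e-06; 2.31 without ESC WT replicate 2), and MLL2dTAG overlapped WT and was not called (-0.39). The EphB receptors Ephb2 and Ephb4 were lower in dCD (-0.45 and -0.22) and higher in MLL2dTAG (0.40 and 0.46), and Ephb3 was lower in both (-0.71 and -0.32).

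Among the ephrin ligands, those called in dCD were Efna4 (0.30), Efnb1 (0.71) and Efnb2 (0.80), all higher. In MLL2dTAG all 3 ephrin-B ligands were called higher by 0.14 to 0.30, Efna4 was higher by 0.44, and Efna1, Efna2 and Efna5 were lower. Efna5, which repels retinal axons in the midbrain, had 3.89, 5.51 and 4.22 CPM in WT, 5.59, 4.68 and 5.59 CPM in dCD and 1.502, 1.65 and 2.35 CPM in MLL2dTAG. The MLL2dTAG libraries lay below all others (log2 change -1.30 ± 0.154 (SE), edgeR adjusted p = 5.3e-09), and dCD overlapped WT. Slits and Robos moved by under 1 on the log2 scale except Robo2, which had 0.852, 0.7298 and 0.476 CPM in WT and 1.62, 2.24 and 1.83 CPM in dCD (log2 change 1.51 ± 0.256 (SE), edgeR adjusted p = 6.87e-06).

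Netrin-1 was the ligand with the largest change in ESC. Ntn1 had 51.8, 53.4 and 49.6 CPM in WT, 54.1, 57.4 and 55.7 CPM in dCD and 155, 153 and 155 CPM in MLL2dTAG. The MLL2dTAG libraries were 2.99-fold above WT (log2 change 1.58 ± 0.0484 (SE), edgeR adjusted p = 1.14e-24), and dCD was not called (0.11). This small dCD change was called with DESeq2's test and under some other alternatives. Unc5a, a repulsive netrin receptor, was lower in dCD, with 4.44, 3.52 and 3.095 CPM against 8.84, 9.32 and 9.28 CPM in WT (log2 change -1.32 ± 0.141 (SE), edgeR adjusted p = 9.38e-10), and less so in MLL2dTAG (-0.49). Unc5c was higher in both lines (1.22 and 1.06), with 1.81, 1.99 and 1.63 CPM in WT, 3.84, 5.63 and 3.28 CPM in dCD and 3.74, 3.66 and 3.92 CPM in MLL2dTAG. Dcc was near the floor: 8 counts over the 3 WT libraries and 2 over the MLL2dTAG libraries gave a ratio of 0.200 (95% counting interval 0.0207 to 1.00, not called), while dCD had 0.896, 1.12 and 0.8202 CPM, above WT in each library (log2 change 3.16 ± 0.438 (SE), edgeR adjusted p = 1.91e-07). Epha6 likewise rested on 12 and 2 counts in WT and MLL2dTAG.

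Both neuropilins rose in both lines. Nrp1, the neuropilin of Sema3a, had 5.54, 6.34 and 4.93 CPM in WT, 13.3, 13.1 and 10.9 CPM in dCD and 14.4, 13.4 and 14.2 CPM in MLL2dTAG (log2 changes 1.14 and 1.32). Nrp2, the neuropilin of Sema3f, had 25.4, 25.3 and 22.8 CPM in WT, 37.2, 39.4 and 35.1 CPM in dCD and 73.1, 75.7 and 77.2 CPM in MLL2dTAG, with changes of 0.61 and 1.62 (edgeR adjusted p = 4.88e-24 in MLL2dTAG). All dCD and MLL2dTAG libraries lay above WT for both genes. Sema3a, a repellent for sensory and cortical axons, was higher in MLL2dTAG, with 6.595, 7.39 and 7.62 CPM against 2.72, 3.35 and 2.89 CPM (log2 change 1.26 ± 0.109 (SE), edgeR adjusted p = 2.75e-12). Sema3c was higher in dCD, with 14.2, 14.5 and 13.7 CPM (log2 change 1.36 ± 0.0728 (SE), edgeR adjusted p = 3.77e-17), and less so in MLL2dTAG (0.65). Plxna4, a plexin that transmits Sema3a, had 1.12, 1.36 and 1.77 CPM in WT and 3.44, 3.32 and 4.02 CPM in MLL2dTAG (log2 change 1.32 ± 0.172 (SE), edgeR adjusted p = 3.9e-08).

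Some calls in ESC did not hold: Epha7, Slit1, Slit2, Unc5d, Sema3a and Plxna2 in dCD, and Epha3, Epha6, Ephb6, Efna1, Efnb2, Efnb3, Slit3, Robo1 and Plxna1 in MLL2dTAG, each lost their call in at least 1 alternative. Among these Unc5d in dCD stood at 0.87 without dCD replicate 2 (1.19 with it), Epha3 in MLL2dTAG at 0.91 without MLL2dTAG replicate 3 (1.195 with it), and Epha6 in MLL2dTAG at -2.07 without that same library (-2.69 with it). Beside these results, mesoderm and mesenchyme markers summed to 467 to 583 CPM in ESC WT, 745 to 834 CPM in dCD (10 of 12 higher) and 849 to 905 CPM in MLL2dTAG (11 of 12 higher), and pluripotent markers were 2584 to 2696 CPM, 2636 to 2735 CPM (3 of 10 higher, 4 lower) and 3381 to 3484 CPM (8 higher, 1 lower). Neural progenitor markers summed to 536.5 to 549.6 CPM in ESC WT and 386 to 411.5 CPM in dCD (6 of 12 higher, 3 lower). In MLL2dTAG these progenitor markers summed to 489 to 502 CPM (3 higher, 4 lower). Neuron markers summed to 442.5 to 521.5 CPM in ESC WT and 489.5 to 509.6 CPM in dCD (6 of 12 higher, 2 lower). In MLL2dTAG the neuron markers summed to 515 to 535.8 CPM (5 higher, 5 lower). Neural crest markers summed to 97.3 to 102 CPM in ESC WT, 101 to 105 CPM in dCD (4 of 8 higher, 1 lower) and 141 to 150.2 CPM in MLL2dTAG (4 higher, 2 lower). Endoderm markers summed to 16.8 to 18.3 CPM, 11.9 to 12.9 CPM (4 of 8 lower) and 28 to 30.4 CPM (2 higher, 3 lower). Endothelial markers summed to 122.5 to 125.6 CPM, 93.4 to 95.9 CPM (1 of 8 higher, 2 lower) and 101 to 106 CPM (3 higher, 4 lower). Their part in the result was not tested.

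After differentiation most members were again called in both lines. In dCD NPC, 39 of 42 members were called against NPC WT, 22 higher and 17 lower, beside 53.5% of all genes (26.7% higher, 26.8% lower), and Epha6, Slit2 and Robo1 were not called. Epha6 and Robo1 were called in some alternative. Changes of 2-fold or more were 6 higher and 4 lower, beside 7.03% and 4.86% of all genes, with a median of 0.28 against -0.02. All but 1 of the 6 netrin pathway genes were higher, both neuropilins were higher, and all 3 ephrin-B ligands were lower. In MLL2dTAG NPC, 32 were called, 17 higher and 15 lower, beside 61.7% of all genes (33.3% higher, 28.4% lower). By 2-fold or more, 3 were higher and 5 lower, beside 7.71% and 11.9%, with a median of 0.04 against 0.03. Of the calls over all genes 54% were higher, and this share was 44.7% with upper quartile factors and 45.7% with library totals only. Both comparisons share the NPC WT libraries.

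**Figure D3:**
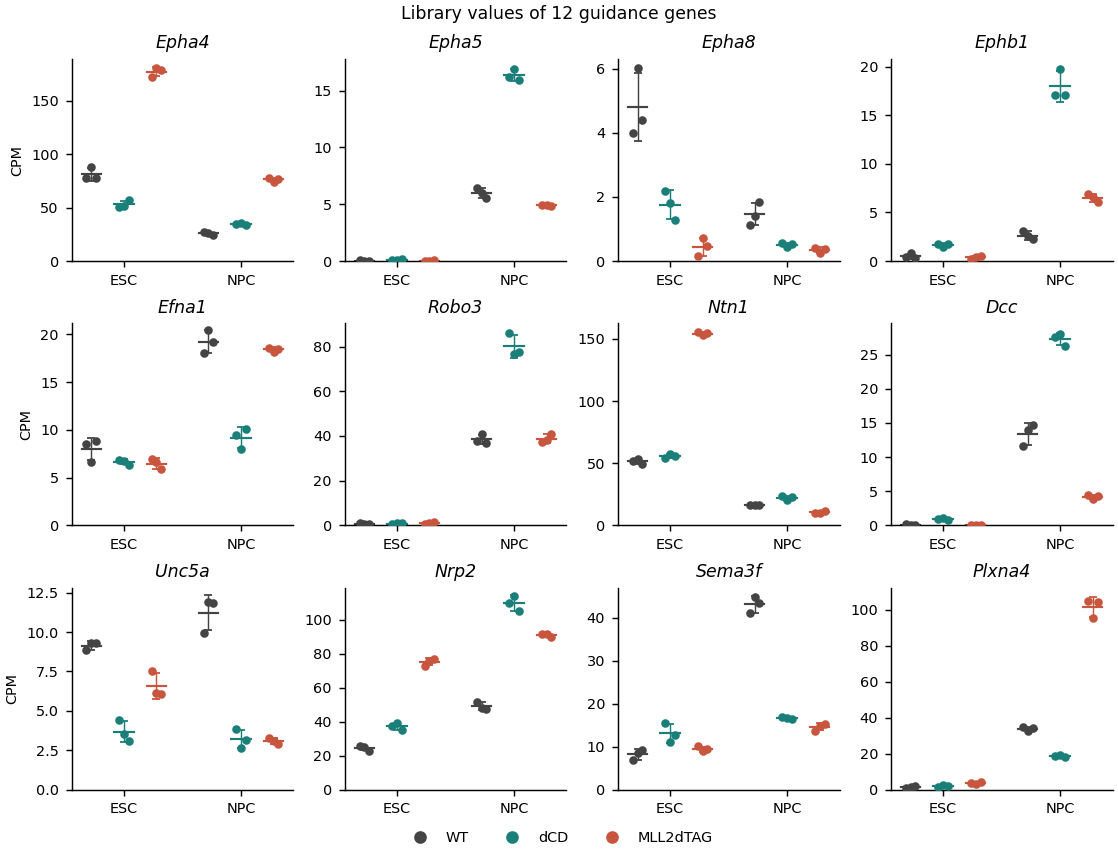
CPM of 12 guidance genes (vertical axes from 0, each with its own scale) in every library, ESC on the left and NPC on the right of each panel, coloured by line, with the mean and SD of 3 libraries as a bar and whiskers. Ntn1 is highest in MLL2dTAG ESC, Dcc is high in dCD NPC and low in MLL2dTAG NPC, and Sema3f is low in both lines as NPC.

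The largest rise in dCD NPC was that of Ephb1. It had 3.102, 2.53 and 2.24 CPM in WT, 17.1, 19.8 and 17.04 CPM in dCD and 6.91, 6.54 and 6.03 CPM in MLL2dTAG, so the 3 groups did not overlap. The change was 6.88-fold in dCD (log2 change 2.78 ± 0.143 (SE), edgeR adjusted p = 2.35e-18) and 2.48-fold in MLL2dTAG (log2 change 1.31 ± 0.151 (SE), edgeR adjusted p = 1.96e-09). Epha5 rose in dCD to 16.2, 16.9 and 15.96 CPM from 6.46, 5.97 and 5.59 CPM (log2 change 1.45 ± 0.129 (SE), edgeR adjusted p = 6.43e-12). Its MLL2dTAG libraries, at 4.92, 4.97 and 4.83 CPM, all lay below WT. This change was not called (-0.29), but was called under some alternatives, halved counts among them. Epha4 rose most in MLL2dTAG, with 27.2, 26.3 and 23.9 CPM in WT, 34.9, 35.5 and 34.1 CPM in dCD and 77.4, 74.3 and 77.2 CPM in MLL2dTAG (log2 change 1.57 ± 0.0522 (SE), edgeR adjusted p = 4.65e-24). Epha8 stayed below WT in both lines: the libraries had 1.14, 1.41 and 1.84 CPM in WT, 0.552, 0.442 and 0.528 CPM in dCD and 0.415, 0.243 and 0.365 CPM in MLL2dTAG, a change of -1.53 and -2.12 (edgeR adjusted p = 0.000122 in dCD and edgeR adjusted p = 1.36e-06 in MLL2dTAG). Epha6 was lower in MLL2dTAG, with 0.564, 0.309 and 0.444 CPM against 1.203, 1.47 and 1.37 CPM in WT (log2 change -1.64 ± 0.367 (SE), edgeR adjusted p = 0.000206). Epha10 was also lower in both (-0.67 and -0.93). Of the abundant receptors, Ephb2 was lower in dCD (-0.56) and not called in MLL2dTAG (0.06), and Epha7 was higher by 0.16 and 0.66. Epha2 was higher by 0.69 in dCD and 0.39 in MLL2dTAG.

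Ephrin ligands were mostly lower by small amounts in dCD NPC. The exceptions were Efna3 (0.63) and Efna5 (0.65), which were higher. Efna1, a ligand also known from endothelium, fell the most: it had 18.04, 20.4 and 19.2 CPM in WT and 9.45, 7.95 and 10.1 CPM in dCD (log2 change -1.07 ± 0.092 (SE), edgeR adjusted p = 2.58e-12), while MLL2dTAG at 18.6, 18.2 and 18.5 CPM overlapped WT. Efna1, Efna3 and Efna4 are adjacent genes in RefSeq, and in dCD NPC they differed by -1.07, 0.63 and -0.22. Efnb1 and Efnb3 were lower in both lines (-0.39 and -0.45 in dCD, -0.34 and -0.44 in MLL2dTAG). Slit3 was higher in both lines (0.80 and 0.29), Slit1 was higher in dCD (0.49) and lower in MLL2dTAG (-0.86), and Slit2 was lower in MLL2dTAG (-0.32). Robo3 was 2.08-fold higher in dCD, with 86.1, 76.7 and 77.4 CPM against 37.6, 40.8 and 36.95 CPM in WT (log2 change 1.06 ± 0.0653 (SE), edgeR adjusted p = 4.22e-16). Its MLL2dTAG libraries, at 37.5, 37.98 and 41.1 CPM, overlapped WT.

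Among the netrin receptors, Dcc went opposite ways in the lines. Dcc had 11.7, 13.95 and 14.7 CPM in WT, 27.6, 28.01 and 26.3 CPM in dCD and 4.42, 3.91 and 4.23 CPM in MLL2dTAG. It was 2.03-fold higher in dCD (log2 change 1.02 ± 0.0938 (SE), edgeR adjusted p = 1.44e-11) and 3.23-fold lower in MLL2dTAG (log2 change -1.69 ± 0.111 (SE), edgeR adjusted p = 1.26e-15), with no overlap among the 3 groups. Unc5a fell in both lines, from 9.97, 11.9 and 11.8 CPM in WT to 3.83, 2.65 and 3.17 CPM in dCD and 3.26, 3.07 and 2.87 CPM in MLL2dTAG. It had a log2 change -1.81 ± 0.131 (SE), edgeR adjusted p = 2.79e-14 in dCD and a log2 change -1.88 ± 0.129 (SE), edgeR adjusted p = 4.48e-15 in MLL2dTAG, with all libraries of both lines below WT. Unc5d, a receptor of migrating cortical cells, rose in dCD to 11.6, 11.6 and 10.3 CPM from 4.31, 4.15 and 3.52 CPM (log2 change 1.48 ± 0.133 (SE), edgeR adjusted p = 6.93e-12) and was not called in MLL2dTAG (0.23). Unc5b was higher in both (0.52 and 0.55), and the ligand Ntn1 was higher in dCD (0.42) and lower in MLL2dTAG (-0.67).

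Sema3f, the repellent that acts through Nrp2, fell in both lines. It had 41.02, 44.95 and 43.5 CPM in WT, 16.8, 16.7 and 16.4 CPM in dCD and 13.7, 14.9 and 15.4 CPM in MLL2dTAG (log2 change -1.38 ± 0.0793 (SE), edgeR adjusted p = 6.11e-17 in dCD and log2 change -1.56 ± 0.0793 (SE), edgeR adjusted p = 1.09e-18 in MLL2dTAG). Its receptor Nrp2 rose in both, from 51.6, 48.4 and 47.7 CPM in WT to 110.1, 114 and 105 CPM in dCD and 91.98, 91.4 and 89.9 CPM in MLL2dTAG (log2 changes 1.16 and 0.89). Every library of both lines lay below WT for Sema3f and above WT for Nrp2. Sema3a was lower in both (-0.62 and -0.77), and Nrp1 was higher in dCD (0.96) and not called in MLL2dTAG (0.06). Plxna4 had 34.6, 32.8 and 34.5 CPM in WT, 18.8, 19.3 and 18.1 CPM in dCD and 105, 95.4 and 104 CPM in MLL2dTAG. It was lower in dCD (-0.86) and 2.995-fold higher in MLL2dTAG (log2 change 1.58 ± 0.0643 (SE), edgeR adjusted p = 1.6e-21), without overlap. Plxna1 and Plxna2 were higher in both lines, by 0.25 to 0.66. Epha1 and Ephb6 in dCD and Robo2 in MLL2dTAG lost their calls in some alternative.

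Neuron markers summed to 375 to 385.5 CPM in NPC WT, 527 to 565.5 CPM in dCD (8 of 12 higher) and 330 to 346 CPM in MLL2dTAG (4 higher, 5 lower). Neural progenitor markers summed to 494 to 509.5 CPM, 818 to 863 CPM (7 of 12 higher, 0 lower) and 633 to 648 CPM (4 higher, 4 lower). In MLL2dTAG Cdh2 and Nes rose to 289 and 156 CPM, while Pax6 and Msi1 fell to 26.4 and 77.45 CPM. Pluripotent markers rose from 120.2 to 122 CPM in WT to 300.1 to 306 CPM in MLL2dTAG (9 of 10 higher, Dppa3 at 0) and were at 132 to 139.9 CPM in dCD. Endoderm markers summed to 235 to 239.8 CPM in WT, 195 to 201 CPM in dCD (6 of 8 lower) and 540.4 to 555 CPM in MLL2dTAG (7 higher, 1 lower), and endothelial markers to 65.7 to 67.1 CPM, 46.82 to 50 CPM (4 of 8 lower) and 227 to 231 CPM (5 higher, 1 lower), mostly Kdr. Mesoderm and mesenchyme markers summed to 763 to 779.5 CPM, 954 to 1048 CPM (7 of 12 higher, 3 lower) and 1122 to 1136 CPM (5 higher, 4 lower). In MLL2dTAG Tcf21 fell to 0.956 CPM and Col1a2 from 153 to 21.3 CPM, while Tbx18 rose from 12.45 to 48 CPM. Neural crest markers summed to 99.02 to 102 CPM, 159 to 163 CPM (3 of 8 higher, 1 lower) and 148 to 150.5 CPM (6 higher, 1 lower). Their part in the result was not tested.

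Set directly against each other, the lines differed at both stages. In NPC, 30 members were called in MLL2dTAG against dCD, 11 higher and 19 lower, beside 55.9% of all genes (31.6% higher, 24.3% lower). Over all genes the share of calls that were higher was 56.5%, and it was 45.2% with upper quartile factors and 45.3% with library totals only. Plxna4 (2.44), Epha4 (1.13) and Efna1 (1.01) were higher in MLL2dTAG by 2-fold or more, as were 6.32% of all genes. Those lower by 2-fold or more, as were 11.8% of all genes, were Dcc (-2.71), Epha6 (-2.34), Epha5 (-1.74), Ephb1 (-1.47), Slit1 (-1.35), Unc5d (-1.26), Ntn1 (-1.09) and Robo3 (-1.04). Unc5a (-0.07) and Sema3f (-0.18), which fell against WT in both lines, were not called between them. Sema3f was called under some alternatives, among them upper quartile factors, library totals only and DESeq2's test. In ESC, 29 were called, 14 higher and 15 lower, beside 47.2% of all genes (23.4% higher, 23.7% lower). Epha4 (1.74), Ntn1 (1.47) and Nrp2 (1.02) were higher in MLL2dTAG ESC by 2-fold or more (3.13% of all genes), and Ephb1 (-2.09), Epha8 (-1.93), Robo2 (-1.85), Unc5d (-1.79), Efna5 (-1.495) and Epha1 (-1.38) were lower by as much (8.58% of all genes), together with Dcc. Dcc had 70 counts over the dCD ESC libraries and 2 over the MLL2dTAG ESC libraries, a ratio of 0.0217 (95% counting interval 0.00258 to 0.0815). Robo2, Sema3a and Ephb6 in NPC, and Efnb3 and Plxna1 in ESC, lost their calls in some alternative.

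Whether a line's change differed between the stages was tested as an interaction, the change against WT in NPC minus that in ESC. For dCD 31 members were called, 15 higher and 16 lower in NPC relative to ESC, beside 42.9% of all genes (20% and 22.9%). At 2-fold or more there were 3 and 7, beside 5.68% and 5.4% of all genes. For MLL2dTAG 29 were called, 12 higher and 17 lower, beside 49% of all genes (26.4% and 22.6%). Of those calls over all genes 53.9% were higher, and 44.8% with library totals only. At 2-fold or more there were 4 and 8, beside 8.35% and 8.97% of all genes. In dCD, 9 members were called in opposite directions at the 2 stages (Epha1, Epha3, Epha4, Efna4, Efnb1, Efnb2, Slit1, Sema3a and Sema3f), beside 9.65% of all genes tested. In MLL2dTAG there were 12 (Epha3, Epha7, Ephb3, Efna5, Efnb1, Efnb3, Slit2, Slit3, Robo1, Ntn1, Unc5b and Sema3a), beside 10.6% of all genes tested. Of these, Epha1, Slit1 and Sema3a in dCD and Epha3, Efnb3, Slit3 and Robo1 in MLL2dTAG rest on a call at 1 stage that some alternative ended. Epha3 had only 18 counts over the ESC WT libraries, 58 over ESC dCD and 52 over ESC MLL2dTAG.

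**Figure D4:**
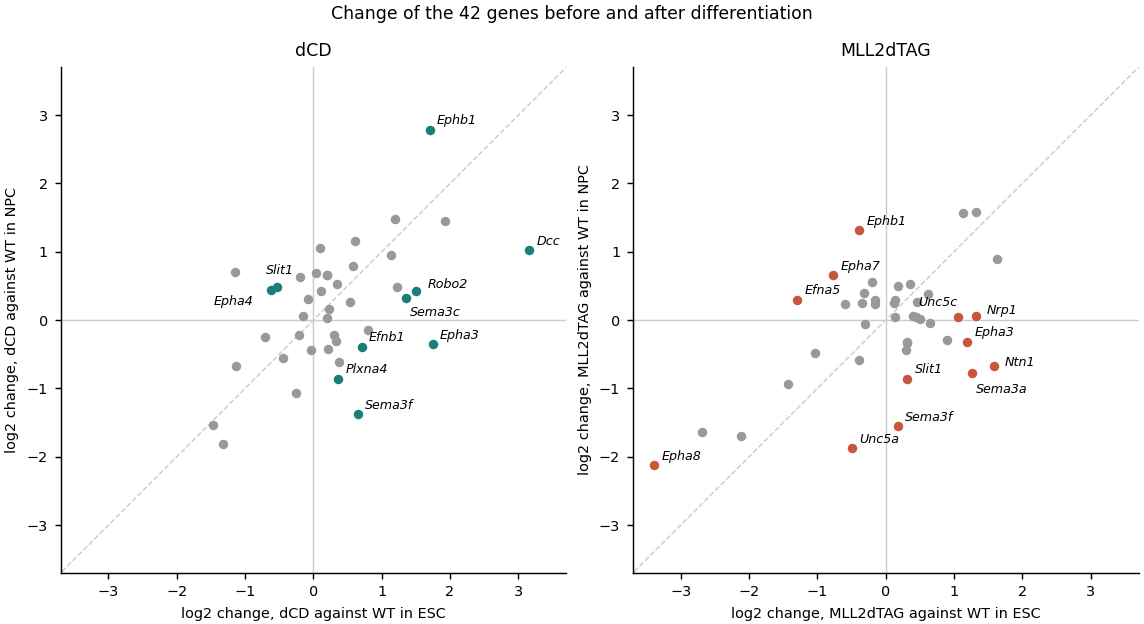
The log2 change against WT in ESC (horizontal axis) and in NPC (vertical axis) for the 42 genes in dCD (left) and MLL2dTAG (right), with the dashed line where both are equal. Coloured and named genes have a called interaction of at least 2-fold: Dcc lies below the line in dCD, and Ntn1, Sema3a and Sema3f lie below it in MLL2dTAG.

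Among called interactions in dCD the most negative was that of Dcc (log2 change -2.14 ± 0.476 (SE), edgeR adjusted p = 0.000354): the dCD libraries were above WT at both stages, by 3.16 in ESC, where WT had 8 counts and dCD at most 1.12 CPM, and by 1.02 in NPC. Sema3f (-2.03) turned from higher in ESC, with 6.87, 8.49 and 9.18 CPM in WT and 15.5, 11.1 and 12.6 CPM in dCD, to lower in NPC. The largest positive call was that of Ephb1 (log2 change 1.08 ± 0.357 (SE), edgeR adjusted p = 0.0132), which was not called without ESC WT replicate 2 (0.47, edgeR adjusted p = 0.454). Among called interactions in MLL2dTAG the most negative was that of Ntn1 (log2 change -2.25 ± 0.0815 (SE), edgeR adjusted p = 2.76e-22), with libraries above WT in ESC and, at 10.3, 9.56 and 11.3 CPM, below the 16.2, 16.7 and 16.3 CPM of WT in NPC. The largest positive call was again that of Ephb1 (log2 change 1.71 ± 0.4103 (SE), edgeR adjusted p = 0.000678), which without ESC WT replicate 2 was 1.09 with an edgeR adjusted p of 0.0713. The Efna5 value in MLL2dTAG turned from -1.30 in ESC to 0.30 in NPC (interaction 1.59, edgeR adjusted p = 5.93e-10). Slit3, Unc5a, Unc5b, Efna5, Efnb3 and Robo3 in dCD, and Epha8, Ephb4, Efna3 and Plxna1 in MLL2dTAG, lost a called interaction in some alternative.

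The other guidance ligands and receptors of a list of 46 genes, of which 45 were tested, moved in both directions. In NPC dCD 18 were higher and 17 lower (median -0.02), among them Sema3e (1.69), Ntng1 (1.40), Nrcam (1.29) and Sema5a (1.27), all higher. In NPC MLL2dTAG 17 were higher and 19 lower (median -0.16), and the largest changes were losses of Plxnd1 (-2.74), Sema4f (-2.43), Flrt1 (-2.05) and Cntn2 (-1.51). In ESC 12 were higher and 15 lower in dCD, and 15 higher and 18 lower in MLL2dTAG. Flrt2, an adhesion molecule that binds UNC5 receptors, was higher in both ESC lines (1.54 and 1.58). In ESC dCD Rgma (1.08) was also higher, and Cntn2 (-0.94) and Sema4g (-0.72) were lower. In ESC MLL2dTAG Robo4 (2.90) was higher, and Sema6a (-1.925) and Nrcam (-1.74) were lower. Of 42 intracellular effectors, which carry guidance signals to the cytoskeleton, 22 were higher and 7 lower in NPC dCD (median 0.14), and 25 higher and 13 lower in NPC MLL2dTAG (median 0.22). In NPC MLL2dTAG Vav3 (-1.50) and the kinase gene Pak1 (-1.26) fell, and Rhod (0.93) and Chn2 (0.92) rose. In NPC dCD Pak3 (1.05), Rhod (1.04), Srgap1 (0.97) and Vav3 (0.78) rose. In ESC the effectors had 11 higher and 16 lower in dCD, and 15 higher and 19 lower in MLL2dTAG. Of all genes tested, 26.7% were higher and 26.8% lower in NPC dCD, and 33.3% and 28.4% in NPC MLL2dTAG. The ESC shares were 25.7% and 22.6% in dCD, and 28.7% and 28.2% in MLL2dTAG.

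Some members share sequence with a neighbour on the other strand: 14.1% of the exon bases of Efna3, 10.7% of Plxna1, 10.5% of Efna4 and 6.01% of Epha1. The libraries came from a stranded kit, but the strand setting of the counting is not given in any source read here, so reads of such a pair may not be told apart. Robo1 and Robo2 are also neighbours, and Ephb2 and Epha8 have 3 genes between them, and in NPC dCD the first pair differed from WT by 0.06 and 0.42 and the second by -0.56 and -1.53.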

How the data were processed

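Bulk mRNA libraries (TruSeq Stranded mRNA, per the labels' protocols) were counted per gene symbol by the authors with HTSeq (version not given), per the submitters' processing notes, and the deposited values are raw counts. Aligner, genome build, annotation and strand setting are not given in the sources used here. Of the table's columns, 18 matched 1 sample each. Another 6 columns, with repeated names, and 12 of a second table could not be assigned and are not analysed here.

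Counts were fitted in edgeR 4.0.16 (R 4.3.3; limma 3.58.1) with TMM factors (0.967 to 1.05), filterByExpr and 1 mean per group over 6 groups, leaving 12 residual degrees of freedom. Comparisons and interactions were contrasts tested by quasi-likelihood, with Benjamini-Hochberg adjustment over 20511 genes. Of these contrasts, only NPC dCD against NPC WT was also run on simulated data. CPM used library totals over the 20511 genes tested, multiplied by the TMM factors. Counting intervals (95%, exact) and floors of 3 counts cover counting error only. Lengths came from GENCODE M21, and promoters and neighbours from RefSeq GRCm38.p6. The alternatives were 3 other scalings, DESeq2 1.42.0, no filter or at least 1 CPM in 3 libraries, only the groups compared, a replicate block, halved counts, each replicate left out, and, added after seeing the data, offsets for GC content and length.

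Members were described library by library where called, at least 2-fold changed, without overlap between groups and at 1 CPM or more; other members are given by count and log2 change, and other lists by up to 4 genes with the largest called change at 5 CPM or more. Members and lists were chosen with earlier results of these data known.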

Additional observations from a re-analysis of the deposited data

Results flagged for a closer look

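The change of a line against WT differed between NPC and ESC by at least 2-fold, by edgeR's test of the interaction, for 10 members in dCD. Of all genes tested, 5.68% met this condition higher in NPC relative to ESC and 5.4% lower. On the log2 scale, NPC minus ESC, the EphA and EphB receptors gave -2.10 for Epha3, 1.05 for Epha4 and 1.08 for Ephb1, and without ESC WT replicate 2 Ephb1 was 0.47 and not called. Over the libraries of ESC WT and ESC dCD, Epha3 had 18 and 58 counts and Robo2 had 52 and 141. The ligands Efnb1 and Slit1 gave -1.09 and 1.03, and the receptors Robo2 and Dcc gave -1.08 and -2.14. Semaphorin signalling gave -1.04 for Sema3c, -2.03 for Sema3f and -1.22 for Plxna4.

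In MLL2dTAG 12 members met the same condition, as did 8.35% (higher) and 8.97% (lower) of all genes tested. The Eph receptors gave -1.51 for Epha3, 1.43 for Epha7, 1.27 for Epha8 and 1.71 for Ephb1, and the ligands gave 1.59 for Efna5, -1.17 for Slit1 and -2.25 for Ntn1. Without ESC WT replicate 2, Epha8 was 1.07 and Ephb1 1.09, and neither was called. The receptors Unc5a, Unc5c and Nrp1 gave -1.39, -1.02 and -1.25, and the semaphorins Sema3a and Sema3f gave -2.03 and -1.74. Epha3 and Sema3f were negative and Ephb1 positive in both lines, and Slit1 had opposite signs. The lines share the WT libraries of both stages, so these values are not independent.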

How the results depend on the processing

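Of 293 calls of members over all comparisons, 255 kept their call and direction under every alternative run and 38 lost the call under at least 1. The sign of Unc5a in NPC WT against ESC WT turned from 0.30 to -0.075 with offsets for GC content and length, and the cause was not tested. Over all alternatives the number of members called stayed within 26 to 34 (ESC dCD), 25 to 33 (ESC MLL2dTAG), 37 to 41 (NPC dCD), 32 to 34 (NPC MLL2dTAG) and 39 to 41 (WT differentiation). Between the lines it stayed within 27 to 34 in NPC and 29 to 31 in ESC, and for the interactions within 29 to 31 (dCD) and 27 to 30 (MLL2dTAG). Leaving out 1 library at a time gave 26 to 32 and 27 to 31 members in ESC dCD and ESC MLL2dTAG, 37 to 39 in NPC dCD, 32 in NPC MLL2dTAG, and 39 to 41 in WT differentiation. Halving all counts kept 27 of 30 calls in ESC dCD and 30 of 32 in ESC MLL2dTAG. Replicate numbers did not pair the libraries: none of 45 same-numbered pairs deviated together with a correlation over 0.1 (-0.137 to 0.0518), and 2 of 18 libraries lay closest to their own number. With the replicate block 30, 32, 39 and 32 members kept their calls in the line comparisons (dCD and MLL2dTAG in ESC, then in NPC), 41 in WT differentiation, 29 between the lines in NPC and 29 in ESC, and 31 and 28 in the interactions. Upper quartile factors moved the median of all genes in WT differentiation to -0.12. Without 1 library, Epha5 in WT differentiation ranged from 7.05 to 10.6, Dcc between the lines in ESC from -7.92 to -4.66, and Epha6 in ESC MLL2dTAG from -5.35 to -2.07. The Epha8 interaction in MLL2dTAG lost its call without any of 6 libraries. Depth limits members with a mean under 1 CPM in at least 1 ESC group (Dcc, Epha3, Epha5, Epha6, Epha8, Ephb1, Robo2, Robo3, Unc5d), where 3 counts equal up to 0.160 CPM.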
